A study of Rattus norvegicus with 30 samples.

Results

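The enzymes that build covalent crosslinks into collagen were followed at the transcript level in rat plantaris tendons after tenotomy and repair. The set was 8 named genes, the 5 lysyl oxidases Lox, Loxl1, Loxl2, Loxl3 and Loxl4 and the 3 lysyl hydroxylases Plod1, Plod2 and Plod3. They were taken by name, with no threshold on their values, but with earlier results of these data known. All 8 were found among the 13124 genes with counts, and all 8 passed the filter on low expression. In the rn6 annotation used for counting, the genes were Lox (ENSRNOG00000014426, chromosome 18), Loxl1 (ENSRNOG00000008680, chromosome 8), Loxl2 (ENSRNOG00000016758, chromosome 15), Loxl3 (ENSRNOG00000061373, chromosome 4), Loxl4 (ENSRNOG00000015727, chromosome 1), Plod1 (ENSRNOG00000007763, chromosome 5), Plod2 (ENSRNOG00000030183, chromosome 8) and Plod3 (ENSRNOG00000001417, chromosome 12).

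RNA was sequenced from 30 right plantaris tendons, 1 for each adult male Sprague Dawley rat of 3 months of age. Rats of the repaired groups had a full-thickness cut of the plantaris tendon that was sutured at once, and were given GSK2894631A, an inhibitor of hematopoietic prostaglandin D synthase, or its vehicle by oral gavage. Control tendons (n = 3) came from rats with neither surgery nor compound, at 0 days and 0 mg/kg. At 7 days the groups were 7D 0 mg/kg (n = 5), 7D 2 mg/kg (n = 4) and 7D 6 mg/kg (n = 3), and at 21 days they were 21D 0 mg/kg, 21D 2 mg/kg and 21D 6 mg/kg (n = 5 each), called vehicle, low-dose and high-dose tendons below. The Achilles tendon was left intact, and repaired groups differ from control tendons in surgery and in gavage at once, which cannot be told apart in these comparisons. Levels are CPM, which are counts brought to one common library size after correction by the trimmed mean of M values (TMM), and total counts were 12405741 to 49909374 per tendon. The 8 genes had 93 to 44647 counts in each tendon, far above the level of 3 counts, which was 0.0561 to 0.245 CPM and covers counting error only.

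Lysyl hydroxylases act inside the endoplasmic reticulum, where they turn selected lysines of procollagen into hydroxylysine before the chains are secreted. Plod1 acts mainly on lysines of the triple helix, Plod2 on lysines of the telopeptides at the chain ends, and Plod3 also adds sugars to hydroxylysine. Outside the cell, lysyl oxidases, which are copper enzymes, oxidize lysine and hydroxylysine to aldehydes that then join neighbouring collagen molecules, or elastin molecules, without further enzymes. Where the telopeptide lysine is hydroxylated, the crosslinks formed are of the hydroxylysine aldehyde type, which is common in cartilage, bone and scar. Lox and Loxl1 have a propeptide that is cut off to free the catalytic domain, while Loxl2, Loxl3 and Loxl4 carry scavenger receptor domains.

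Control tendons differed from repaired tendons, and from each other, in muscle transcripts. Of a list of 29 skeletal muscle genes, 24 were measured, and they took 18.6, 18.3 and 26.1% of the counts in the 3 control tendons (replicates 2, 3 and 4 in the labels). Their share was 0.164 to 1.21% in 7D vehicle tendons, 0.00781 to 0.0101% in 7D low-dose tendons, 0.00853 to 0.0107% in 7D high-dose tendons, and 0.0625 to 7.58, 1.18 to 3.10 and 0.326 to 9.23% in 21D tendons at 0, 2 and 6 mg/kg. The most abundant gene of the list was Myh4, a fast myosin heavy chain, in control tendons and Acta1, skeletal muscle actin, at both times after repair, and none of the 24 was at 0 counts in any tendon. The TMM factors were 0.599 to 0.788 in control tendons and 0.950 to 1.095 in repaired tendons. Control replicate 4 had the highest muscle share and the lowest TMM factor, and it had the lowest level of every gene of the set but Plod1. A fit with muscle share as a covariate is given below, and in bulk tissue fewer cells of a type and less RNA per cell cannot be told apart.

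Markers of tendon cells were present in every tendon. Of 11 listed, 10 were measured, none at 0 counts in any tendon, and Col1a1 was the most abundant. Against control tendons 1, 0 and 1 were higher and 5 lower at each dose at 7 days, and at 21 days 1 was higher at each dose and 4, 5 and 2 were lower, where 30.8 to 35.8% of all genes were higher and 33.3 to 35.6% lower. Tnmd, a membrane protein of tendon cells, averaged 229.8 ± 118 CPM (SD, n = 3) in rats without surgery and 85.3 ± 42.7 CPM (SD, n = 5) in 7D vehicle tendons, and Scx, a transcription factor of the tendon lineage, averaged 27.2 ± 9.25 CPM (SD, n = 3) and 47.4 ± 30.4 CPM (SD, n = 5). Mkx, another tendon transcription factor, was 2.78 to 9.39 CPM in rats without surgery and 0.11 to 0.616 CPM in 7D vehicle tendons, where it had as few as 4 counts, close to the level of 3 counts.

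Markers of other cell types were also followed. Against control tendons, the endothelial, smooth muscle and cartilage lists had in most groups a share called higher near or below that of all genes. The summed level of 9 measured macrophage markers of 10 listed, led by Lyz2, was 450.3 to 1892 CPM in control tendons, 2262 to 5757 CPM at 7 days and 1540.2 to 8145 CPM at 21 days, and 7, 7 and 8 of the 9 were higher at 7 days and 6, 6 and 4 at 21 days with 0, 2 and 6 mg/kg, where 30.8 to 35.8% of all genes were higher and 33.3 to 35.6% lower over these 6 comparisons. The 5 adipocyte markers, led by Fabp4, summed to 154 to 562, 395 to 2427 and 149.7 to 678 CPM, and 3, 5 and 4 of them were higher at 7 days and none at 21 days, when 1 was lower with 2 mg/kg. All 5 were lower at 21 than at 7 days in the mean over doses, where 16.8% of all genes were lower and 18.9% higher. Of 8 endothelial markers 6 were measured, led by Cdh5, at 175 to 642, 436 to 797 and 207 to 825 CPM, and 3, 2 and 1 were higher at 7 days and none at 21 days, when 3 were lower with 2 mg/kg. Of the 6, 4 were lower at 21 than at 7 days in the mean over doses, against the same 16.8% of all genes. The 8 markers of myofibroblasts and smooth muscle, led by Des in control tendons, summed to 5237 to 8887, 443 to 1646 and 575 to 2479 CPM. Of the 8, 4, 1 and 4 were higher at 7 days and 1 at each dose at 21 days, and 1 was lower in each group but 21D low-dose tendons, where 2 were. Des, desmin, which skeletal muscle also expresses, was lower in all 6 groups. Of 6 markers of cartilage and bone 3 were measured, led by Acan, and 2, 1 and 0 were higher at 7 days and 1, 0 and 0 at 21 days, with none lower. The share of these cell types in the levels of the crosslinking enzymes was not tested.

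Compared to control tendons, most of the crosslinking enzymes were higher in repaired tendons, with log2 fold changes of 1.87 and above for Lox and Loxl1 in every group. In the edgeR quasi-likelihood test, adjusted by Benjamini-Hochberg over 12558 genes, 6 of the 8 rose in 7D vehicle tendons, where 35.8% of all genes tested were higher, and none fell, where 35.6% were lower. In 7D low-dose and 7D high-dose tendons 5 rose, against 35.8 and 34.1% of all genes, and none fell, against 34.0 and 33.8%. In 21D tendons at 0, 2 and 6 mg/kg, 6 rose, against 32.2, 33.8 and 30.8% of all genes, and 1, Loxl4, fell, against 33.7, 35.3 and 33.3%. The median log2 fold change of the 8 genes was 1.28, 1.01 and 0.97 at 7 days and 1.51, 1.47 and 1.25 at 21 days, and the median over all genes tested was between 0.01 and 0.05. All 6 comparisons share the same 3 control tendons.

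Loxl1, Lox, Plod1, Plod2 and Plod3 were above every control tendon in every repaired tendon of both times, which held for 18.6% of all genes tested. Loxl2 was above every control tendon at 21 days and overlapped with them at 7 days, and Loxl3 and Loxl4 overlapped with them at both times. Of all genes tested, 25.6% lay above every control tendon in every 7D tendon and 20.8% in every 21D tendon. The plot of levels in each tendon shows these patterns.

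**Figure D1:**
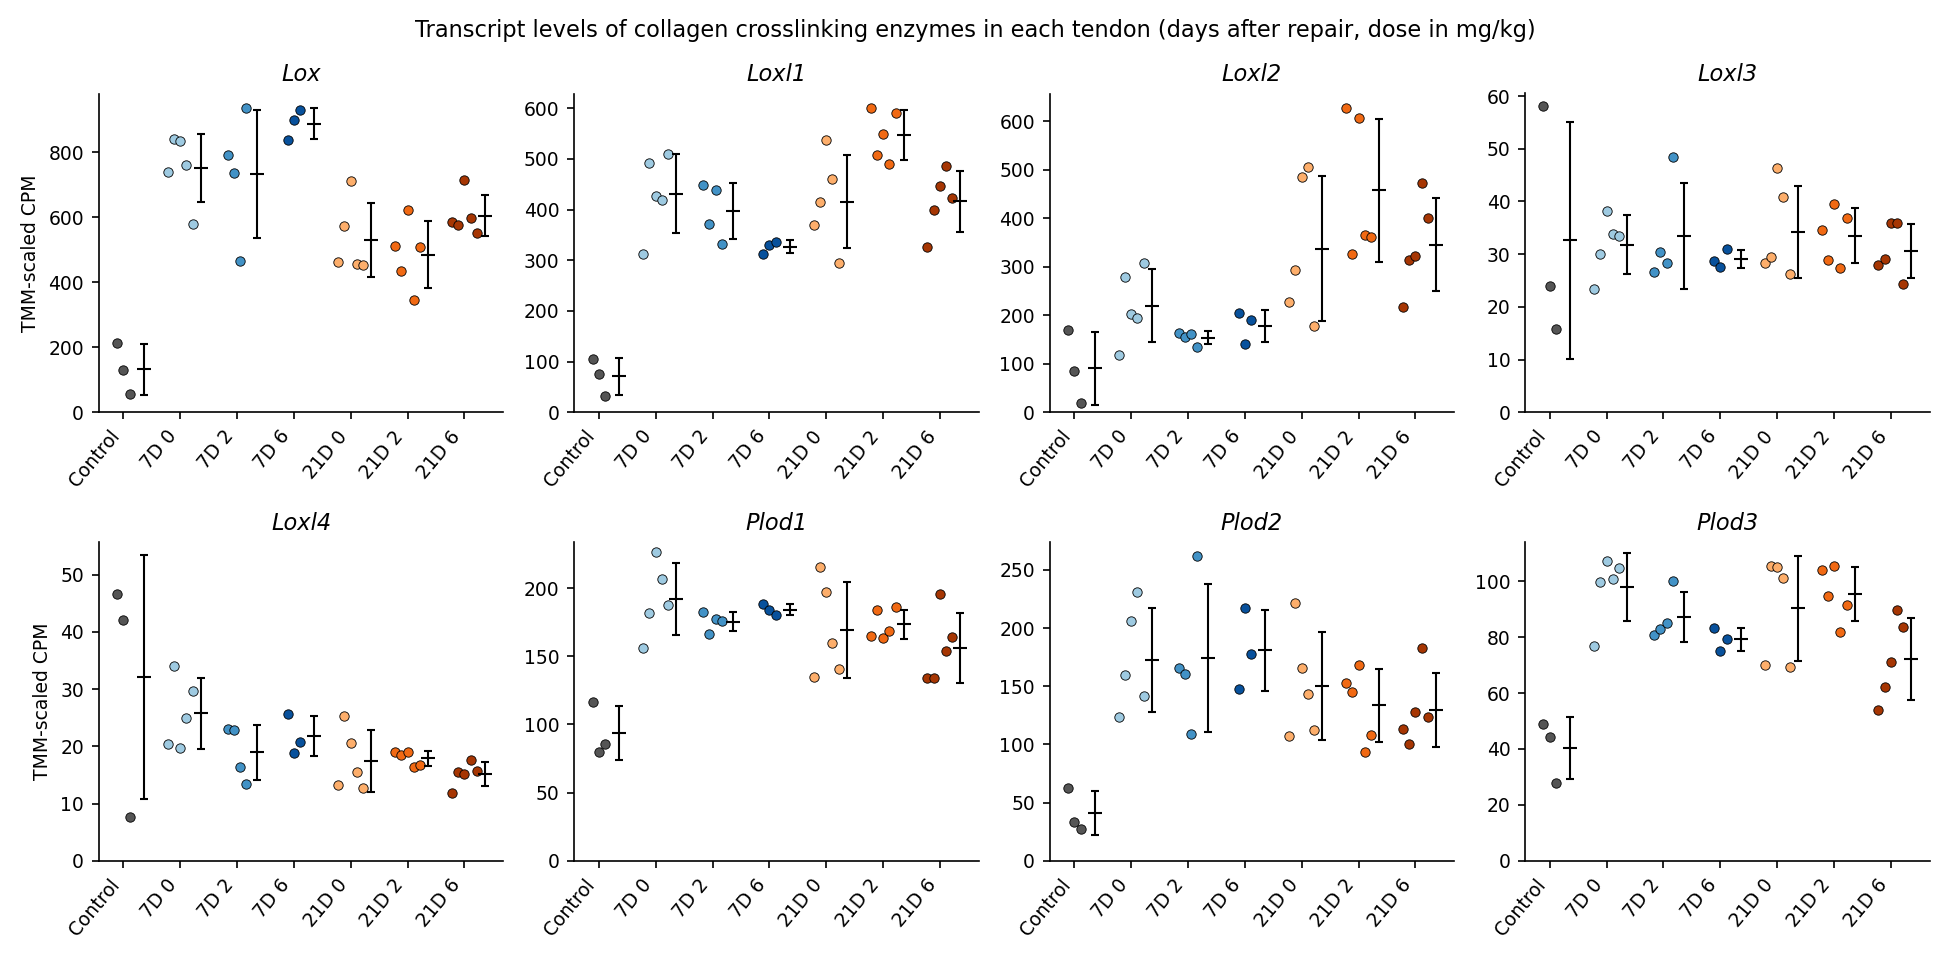
TMM-scaled CPM (linear axis from 0) of the 8 genes in each of the 30 tendons, by group (days after repair and dose in mg/kg). Points are tendons, and bars beside them are the mean ± SD. For Lox, Loxl1, Plod1, Plod2 and Plod3 all 27 repaired tendons lie above all 3 control tendons, while Loxl4 is at 42.0, 46.7 and 7.60 CPM in the control tendons and at 11.9 to 25.4 CPM at 21 days, above the lowest control tendon and below the other 2.

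Lox, the founding lysyl oxidase and a main enzyme of collagen and elastin crosslinking, was measured at 212, 129 and 55.5 CPM in the 3 control tendons. In 7D vehicle tendons it was 739.9, 839, 835, 759 and 580.3 CPM, and in 21D vehicle tendons 461, 573, 712, 455 and 452 CPM. The lowest repaired tendon of these groups was more than 2-fold above the highest control tendon. Lox was 789.7, 736, 465 and 936 CPM in 7D low-dose tendons and 836, 899 and 928 CPM in 7D high-dose tendons. At 21 days it was 512, 433, 623, 344 and 508 CPM with 2 mg/kg and 584, 576, 713, 598 and 552 CPM with 6 mg/kg. All of them were above the highest control tendon. The log2 fold change against control tendons was 2.50 ± 0.30 (SE, 5.67-fold, adjusted p = 7.81e-08) in 7D vehicle and 2.00 ± 0.29 (4.01-fold, adjusted p = 2.35e-06) in 21D vehicle tendons. With 2 and 6 mg/kg it was 2.47 and 2.75 at 7 days and 1.87 and 2.19 at 21 days.

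Loxl1, which acts with fibulins on elastin and also on collagen, had the largest log2 fold change of the set in 5 of the 6 comparisons with control tendons, all but that of 7D high-dose tendons. It was 105, 75.9 and 31.3 CPM in the control group, 312, 491, 426, 419 and 509 CPM in 7D vehicle tendons and 369, 415, 538, 460.0 and 295 CPM in 21D vehicle tendons. With the compound it was 332 to 449 and 313 to 337 CPM at 7 days for 2 and 6 mg/kg, and 490.5 to 601 and 327 to 486 CPM at 21 days. The 5 tendons of the 21D low-dose group were all above the 4 of the 7D low-dose group. The share of all genes with this order was not computed, and Loxl1 did not pass the quasi-likelihood test between these groups (adjusted p = 0.164). The log2 fold change against control tendons was 2.61, 2.49 and 2.21 at 7 days for 0, 2 and 6 mg/kg and 2.55, 2.95 and 2.56 at 21 days, and every adjusted p was 2.40e-07 or lower.

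Loxl2, a lysyl oxidase that also acts on basement membrane collagen IV, was the member most different between the 2 times. It was 169, 84.4 and 19.0 CPM in the control group, a spread of almost 9-fold, 117, 278, 202, 195 and 308 CPM in 7D vehicle tendons and 226, 294, 485, 505 and 178 CPM in 21D vehicle tendons. With 2 mg/kg it was 163, 156, 162 and 134 CPM at 7 days and 627, 327, 607, 365 and 360.5 CPM at 21 days, and with 6 mg/kg 204, 140.4 and 189.7 CPM and 217, 315, 323, 473 and 399.8 CPM. At 2 and at 6 mg/kg the 21D tendons lay above all 7D tendons of the same dose, and in the vehicle groups the 2 times overlapped. At 6 mg/kg Lox and Loxl4 had the reverse order, with all 21D tendons below the 7D tendons. The share of all genes with such an order between the 2 times was not computed. Against control tendons the log2 fold change was 1.28 ± 0.45 (adjusted p = 0.0143) in 7D vehicle tendons, and 0.76 and 0.97 (adjusted p = 0.142 and 0.0792) with 2 and 6 mg/kg. It was 1.89 ± 0.47, 2.33 ± 0.48 and 1.93 ± 0.47 at 21 days (adjusted p = 0.00102, 1.34e-04 and 9.20e-04). With each tendon left out in turn these 21D values ranged from 1.37 to 2.65, 1.80 to 3.07 and 1.41 to 2.68, and all stayed called. The call at 7 days with vehicle rested on control replicate 4, and it was lost with no other groups in the model (adjusted p = 0.101). Without control replicate 4 the log2 fold change was 0.74 (adjusted p = 0.104), and without control replicate 2 Loxl2 was higher in all 3 groups at 7 days (log2 fold change 2.02, 1.51 and 1.73, adjusted p = 9.70e-04, 0.00941 and 0.005).

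Loxl3 and Loxl4 were not called higher in any group. Loxl3, a lysyl oxidase known from skeletal and palate development, was 58.1, 23.9 and 15.8 CPM in control tendons, 23.4 to 48.4 CPM at 7 days and 24.3 to 46.3 CPM at 21 days. Repaired tendons lay inside the range of the control tendons, and the log2 fold changes were -0.04, 0.03 and -0.17 for the doses at 7 days, and at 21 days they were 0.07, 0.03 and -0.09 (adjusted p 0.649 to 0.929). The 95% interval for 7D vehicle tendons was -0.61 to 0.53 and that for 21D vehicle tendons -0.51 to 0.64. Without control replicate 2, which had the highest level, Loxl3 was higher in 4 of the 6 groups, at a log2 fold change of 0.61 (adjusted p = 0.0379) in 7D vehicle and 0.72 (adjusted p = 0.0171) in 21D vehicle tendons.

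Loxl4 was the member that fell, at 21 days. It was 46.7, 42.0 and 7.60 CPM in the control group, 20.4, 34.1, 19.7, 25.0 and 29.7 CPM in 7D vehicle tendons and 13.3, 25.4, 20.6, 15.4 and 12.7 CPM in 21D vehicle tendons. With 2 mg/kg it was 23.1, 22.9, 16.4 and 13.4 CPM at 7 days and 18.9, 18.4, 18.9, 16.4 and 16.7 CPM at 21 days, and with 6 mg/kg 25.6, 18.9 and 20.7 CPM and 11.9, 15.5, 15.2, 17.6 and 15.7 CPM. Every 21D tendon was below control replicates 2 and 3 and above control replicate 4. The log2 fold change against control tendons was -0.88 ± 0.33, -0.85 ± 0.33 and -1.08 ± 0.32 at 21 days (adjusted p = 0.0197, 0.0232 and 0.0054), while at 7 days it was -0.32, -0.76 and -0.57 with adjusted p of 0.384, 0.051 and 0.179. With no other groups in the model the adjusted p at 21 days was 0.172, 0.133 and 0.0753. Scaled by library size only, Loxl4 was not called lower at 21 days at any dose. With a block on replicate number it was not called lower in 21D vehicle or 21D low-dose tendons. The call at 21 days was also lost without control replicate 2 or control replicate 3, with log2 fold changes in 21D vehicle tendons of -0.58 and -0.61 (adjusted p = 0.155 and 0.144). Without control replicate 4 Loxl4 was lower in all 6 groups, at -0.84 (adjusted p = 0.00256) in 7D vehicle and -1.39 (adjusted p = 1.76e-05) in 21D vehicle tendons.

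All 3 lysyl hydroxylases rose in every repaired group. Plod2, the hydroxylase of telopeptide lysines, was 62.4, 33.5 and 27.4 CPM in the control group, 124, 159, 206, 231 and 142 CPM in 7D vehicle tendons and 107, 221, 165, 143 and 112 CPM in 21D vehicle tendons. With 2 mg/kg it was 166, 161, 109 and 262 CPM at 7 days and 153, 145, 168, 93.2 and 108 CPM at 21 days, and with 6 mg/kg 148, 218 and 177 CPM and 114, 100.2, 128, 183 and 124 CPM. The lowest of the 27 repaired tendons was above the highest control tendon. The log2 fold change was 2.07 ± 0.32 (4.19-fold, adjusted p = 3.68e-06) in 7D vehicle and 1.86 ± 0.32 (3.64-fold, adjusted p = 1.81e-05) in 21D vehicle tendons, and with the compound it was 2.08 and 2.14 at 7 days and 1.70 and 1.65 at 21 days.

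Plod1, the hydroxylase of helical lysines, was 116, 79.7 and 85.6 CPM in control tendons, 156 to 226 CPM at 7 days and 134 to 215 CPM at 21 days. Its log2 fold change was 1.03 ± 0.15 (adjusted p = 2.26e-06) in 7D vehicle and 0.85 ± 0.15 (adjusted p = 3.67e-05) in 21D vehicle tendons. Plod3, which hydroxylates and glycosylates, was 48.9, 44.2 and 27.9 CPM in control tendons, 75.1 to 107 CPM at 7 days and 54.0 to 106 CPM at 21 days. Its log2 fold change was 1.28 ± 0.19 (adjusted p = 1.38e-06) and 1.16 ± 0.18 (adjusted p = 7.25e-06). Both were less variable between tendons than Plod2, with coefficients of variation at 7 days of 9.75% for Plod1 and 13.2% for Plod3 against 26.0% for Plod2.

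**Figure D2:**
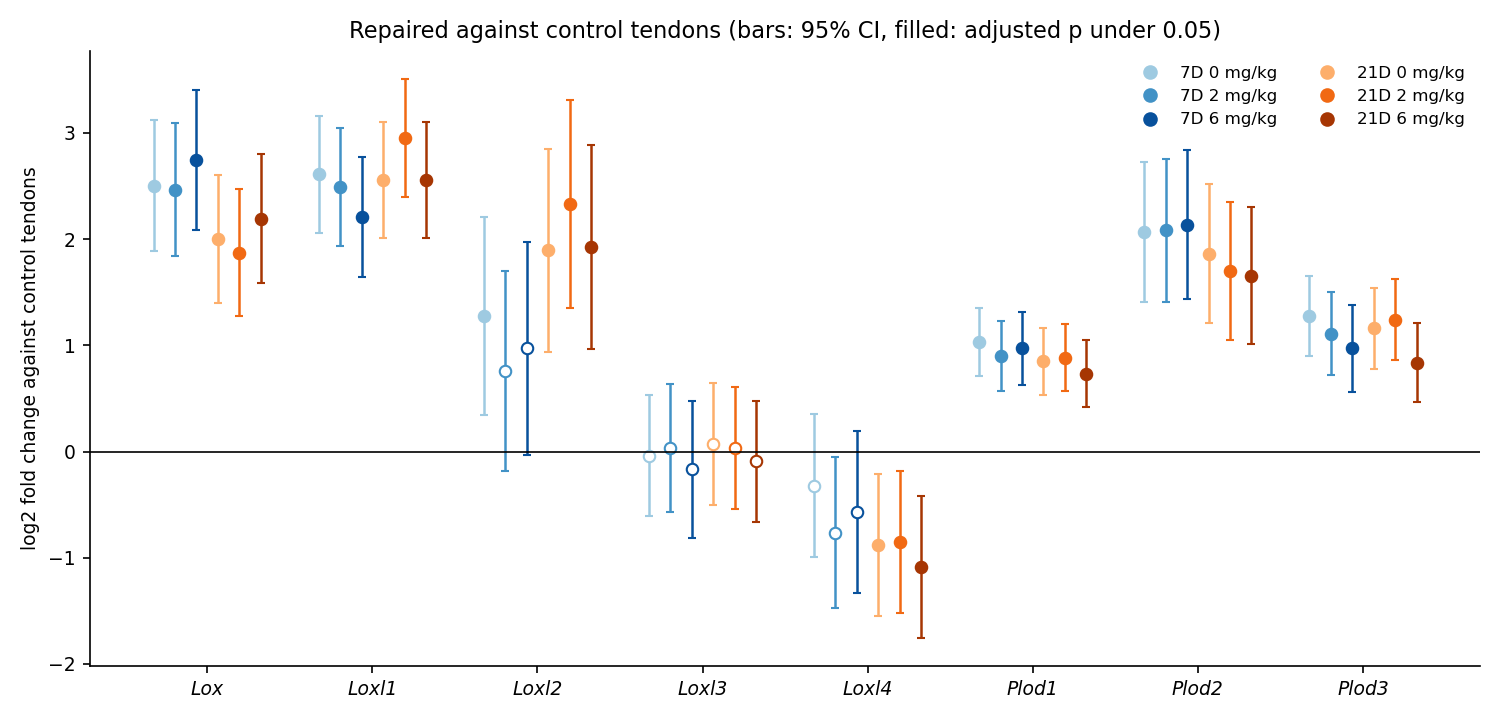
Log2 fold change of each gene against control tendons in the 6 repaired groups, with 95% confidence intervals from edgeR's quasi-likelihood fit. Filled points have an adjusted p under 0.05. Lox, Loxl1, Plod1, Plod2 and Plod3 are filled and above 0 in all 6 groups, Loxl2 in 4, and Loxl4 is filled and below 0 in the 3 groups at 21 days.

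Muscle share moved with these calls. With the log2 share of muscle counts as a covariate, Lox and Loxl1 kept their calls in all 6 groups, and the count of members that rose stayed at 6 in the 3 groups at 21 days and was 5 in 7D vehicle tendons, where Loxl2 was at 1.05 (adjusted p = 0.164). In the same fit 23.1, 26.3 and 23.1% of all genes were higher at 21 days and 22.3% in 7D vehicle tendons. In 7D low-dose and 7D high-dose tendons, whose muscle share was the lowest of all groups, the count went from 5 to 2, while the count of all genes called in either direction went from 8757 to 1343 and from 8529 to 1421, with 4.44 and 4.90% of all genes higher. There the log2 fold change of Plod1 was -0.01 and 0.08 (adjusted p = 0.988 and 0.874), that of Plod2 was 1.28 and 1.35 (adjusted p = 0.188 and 0.161), and that of Plod3 was 0.42 and 0.30 (adjusted p = 0.475 and 0.623). The highest share in any repaired tendon was 9.23% and the lowest in a control tendon 18.3%, so group and share cannot be told apart in any of the 6 groups, and both the calls kept and those lost rest on a fit beyond the shares that were measured.

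The balance between the hydroxylases was taken within each tendon, as the log2 ratio of counts of 2 genes, which no scaling of libraries changes. Plod2 counts were 53.6, 42.0 and 32.1% of Plod1 counts in the 3 control tendons, 79.2, 87.6, 91.1, 112 and 75.5% in 7D vehicle tendons and 79.9, 103, 83.9, 89.6 and 79.9% in 21D vehicle tendons. No repaired tendon was as low as the highest control tendon. The share of gene pairs whose ratio has this order was not computed, here or for the ratios below. The lowest ratio, 32.1%, was that of control replicate 4, which had the highest muscle share (26.1%), and the part of muscle in this ratio was not tested. The log2 ratio was -1.26 ± 0.37 (SD, n = 3) in control tendons, -0.11 ± 0.33 (n = 12) at 7 days and -0.30 ± 0.30 (n = 15) at 21 days with the doses pooled. The ratio was 2.22-fold higher at 7 days than in control tendons (two-sided exact permutation test, p = 0.0044, adjusted p = 0.00882 over 9 tests) and 1.95-fold higher at 21 days (exact permutation p = 0.00245, adjusted p = 0.00882), and both are the smallest p these numbers of tendons allow. Any 2 genes whose ratio was higher in all repaired tendons than in all control tendons would give these unadjusted p-values. The difference between the 2 times was -0.19 on the log2 scale (permutation test, p = 0.142, adjusted p = 0.183). In 0 mg/kg tendons alone the log2 ratio was 1.08 above control at 7 days and 1.06 at 21 days. Neither passed (exact permutation, adjusted p = 0.0643 for both), and 5 against 3 tendons cannot give an unadjusted p below 0.0357.

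Lox also rose against its main substrate chain. Lox counts were 0.704, 0.725 and 0.755% of the counts of Col1a1, the alpha 1 chain of type I collagen, in the 3 control tendons, 3.25, 1.87, 1.62, 1.83 and 1.38% in 7D vehicle and 2.31, 2.25, 1.88, 1.58 and 2.22% in 21D vehicle tendons. The control tendons were close together in this ratio, control replicate 4 included, although their Lox levels differed by almost 4-fold. The ratio was 3.05-fold higher at 7 days (exact permutation p = 0.0044, adjusted p = 0.00882) and 2.75-fold higher at 21 days (exact permutation p = 0.00245, adjusted p = 0.00882) than in control tendons. The 2 times differed by -0.15 on the log2 scale (permutation p = 0.329, adjusted p = 0.37). The ratio of Plod2 to Col1a1 was 2.02-fold higher at 7 days (exact permutation p = 0.022, adjusted p = 0.033) and 2.07-fold higher at 21 days (exact permutation p = 0.0049, adjusted p = 0.00882), and here control replicate 4 overlapped with repaired tendons. Without control replicate 2 or 3 the adjusted p of the Plod2 to Col1a1 ratio at 7 days was 0.165 in both cases, and at 21 days it was 0.0529.

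The ratios of the other members to Col1a1 were taken after these and have no test. Where groups did not overlap, the share of all genes with the same order in their ratio to Col1a1 was not computed. Loxl2 counts were 0.258 to 0.56% of Col1a1 counts in control tendons, 0.391 to 0.735% in 7D vehicle tendons and 0.872 to 1.75% in 21D vehicle tendons, so that the 21D tendons lay above the others. Loxl1 counts were 0.348 to 0.426% of Col1a1 counts in control tendons, 0.826 to 1.37% in 7D vehicle tendons and 1.42 to 1.85% in 21D vehicle tendons. These 3 groups did not overlap, but the 7D low-dose tendons, at 1.23 to 1.62%, overlapped with the 21D tendons. Loxl4 was below the control tendons in this ratio, at 0.103 to 0.236% in control, 0.0382 to 0.0896% in 7D vehicle and 0.0536 to 0.0997% in 21D vehicle tendons. Loxl3 was at 0.134 to 0.214% in control and 0.067 to 0.103% in 7D vehicle tendons, which did not overlap, while the 7D low-dose tendons reached into the control range, at 0.0864 to 0.18%, and it was at 0.116 to 0.142% in 21D vehicle tendons, which overlapped with control tendons. Plod1 and Plod3 overlapped with control tendons in this ratio. Plod1 was at 0.387 to 1.16% in control, 0.406 to 0.686% in 7D vehicle and 0.52 to 0.846% in 21D vehicle tendons, and Plod3 was at 0.162 to 0.38, 0.208 to 0.337 and 0.277 to 0.415%. The log2 ratio of Loxl2 to Lox was -1.55 to -0.33 in control tendons, -2.66 to -0.91 in 7D vehicle and -1.35 to 0.15 in 21D vehicle tendons.

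**Figure D3:**
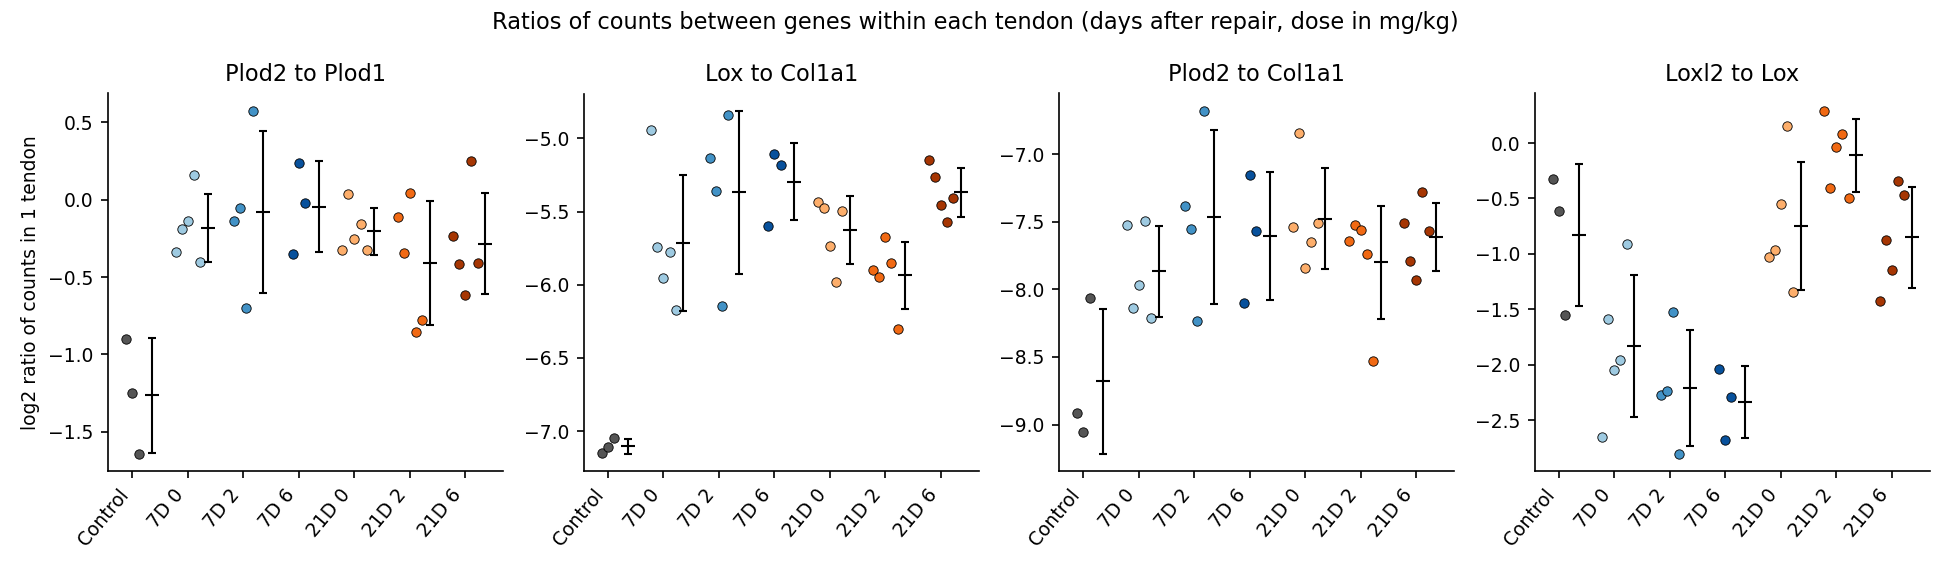
Log2 ratio of the counts of 2 genes within each tendon, for Plod2 to Plod1, Lox to Col1a1, Plod2 to Col1a1 and Loxl2 to Lox, by group. Points are tendons, and bars are the mean ± SD. Repaired tendons lie above the control tendons for Plod2 to Plod1 and Lox to Col1a1, and Loxl2 to Lox is lowest at 7 days, where its group means are between -2.33 and -1.83.

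Few members passed the test between 7 and 21 days. In edgeR's quasi-likelihood test no member differed between 21D and 7D tendons at 0 mg/kg, where the background was 2.88% of genes higher and 2.47% lower. With 2 mg/kg Loxl2 rose, by 1.57 ± 0.41 on the log2 scale (2.97-fold, adjusted p = 0.0123), and no member fell, where the background was 7.09% higher and 5.98% lower. With muscle share as a covariate this call was lost, at a log2 fold change of 1.90 (adjusted p = 0.0774), and Plod1 was called higher instead (adjusted p = 0.0344). In that fit 6.61% of all genes were higher and 7.41% lower. With 6 mg/kg no member differed, where it was 8.54% and 4.55%. With no other groups in the model more members were called. At 2 mg/kg Loxl1 was then higher as well, at 0.45 (adjusted p = 0.032), where 9.34% of all genes were higher. At 6 mg/kg Loxl2 was higher, at 0.96 (adjusted p = 0.0498), and Lox lower, at -0.55 (adjusted p = 0.0291), where 4.82% were higher and 4.83% lower. The log2 fold change of Loxl2 was 0.62 (95% interval -0.15 to 1.39) at 0 mg/kg and 0.96 (0.04 to 1.87) at 6 mg/kg. That of Lox was -0.50, -0.60 and -0.55 at 0, 2 and 6 mg/kg (adjusted p = 0.189, 0.109 and 0.176).

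The mean of the 3 dose-wise differences, a contrast added after the values were seen, gave Loxl2 as higher and Lox as lower at 21 days. Loxl2 rose by 1.05 ± 0.24 on the log2 scale (2.07-fold, adjusted p = 0.00124), and Lox fell by 0.55 on the log2 scale (SE 0.14, adjusted p = 0.00398). In this contrast 18.9% of all genes were higher and 16.8% lower. Values for the other members were 0.25 for Loxl1, 0.06 for Loxl3, -0.39 for Loxl4, -0.14 for Plod1, -0.36 for Plod2 and -0.04 for Plod3, with adjusted p from 0.0793 to 0.785. With only the 6 repaired groups in the model Loxl1 was also called higher (adjusted p = 0.0261) and Loxl4 lower (adjusted p = 0.00754), where 21.4% of all genes were higher and 19.4% lower. Muscle share also moved with time, and with it as a covariate the values were 1.29 for Loxl2 (adjusted p = 0.095) and -0.39 for Lox (adjusted p = 0.445).

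No crosslinking enzyme passed the test between doses of GSK2894631A. In the quasi-likelihood F-test over the 3 doses, adjusted p was 0.696 to 0.992 for the 8 genes at 7 days, where 2.05% of all genes differed, and 0.438 to 0.910 at 21 days, where none of the 12558 genes passed, although 1366 had an unadjusted p under 0.05 and DESeq2 called 138. The test of a difference in dose effect between the 2 times called no member (adjusted p 0.851 to 0.992), with 0.39% of all genes called. Of the pairs of doses, 2 against 0 mg/kg at 7 days had 0.908% of all genes higher and 1.45% lower, and 6 against 0 mg/kg at 7 days had 0.39% lower. Over 6 pairs of doses and 8 genes, the 48 log2 fold changes were between -0.52 and 0.44, and their 95% intervals reached from -1.34 to 1.20. Lox in 7D high-dose against 7D vehicle tendons was 0.24 (-0.31 to 0.79), and Plod2 was 0.07 (-0.53 to 0.67). Of the 48 differences 2 had an unadjusted p under 0.05, both for Plod3 at 21 days, which was 72.2 ± 14.8 CPM with 6 mg/kg against 95.5 ± 9.66 with 2 mg/kg and 90.3 ± 18.9 with 0 mg/kg (SD, n = 5 each). The log2 fold changes were -0.40 and -0.32, with adjusted p of 0.262 and 0.759. At 7 days the dose groups also differed in muscle share, as given above, and with that share as a covariate Plod1 passed the F-test over the 3 doses at 7 days (adjusted p = 0.0484).

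**Figure D4:**
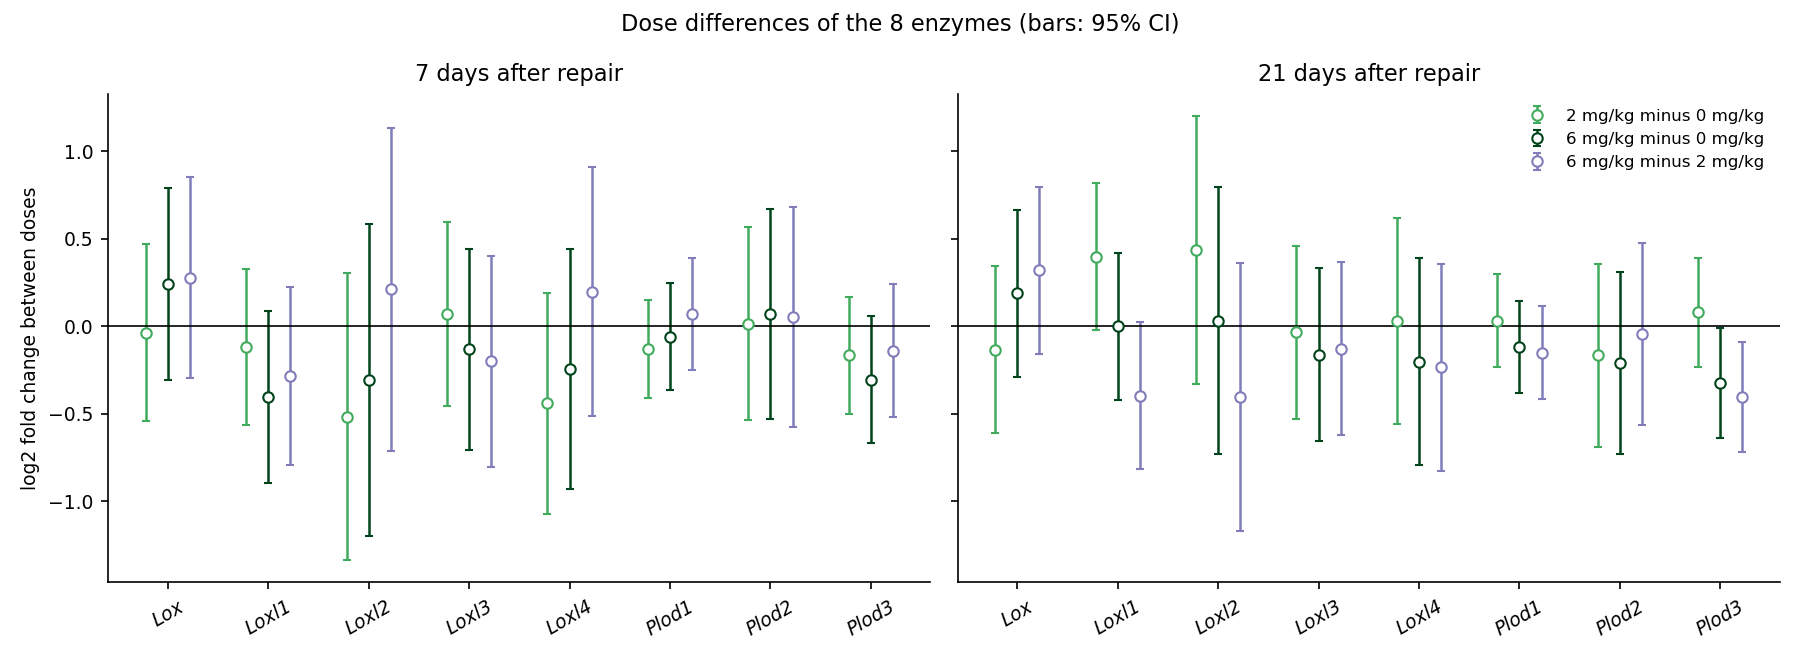
Log2 fold change between doses for each gene at 7 days (left) and 21 days (right), with 95% confidence intervals. Open points mark that none of the 48 differences passed the test, and the points lie between -0.52 and 0.44.

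The promoters of Plod2 and Plod1 are shown for their sequence, as the 250 bases before the start site in the RefSeq annotation of GRCr8. GRCr8 is an assembly other than the rn6 used for counting. Of the 8 genes, 6 had an entry in the promoter table, all but Lox and Loxl2. Capitals mark matches to ACGTG on either strand, a form of the core letters of the site bound by hypoxia-inducible factors. Overlapping matches would be counted separately. The form GCGTG was neither searched for nor marked, and both windows printed here hold it. Plod2 is at chr8:101964068-101964317 on the plus strand and Plod1 at chr5:163650738-163650987 on the minus strand.
Plod2: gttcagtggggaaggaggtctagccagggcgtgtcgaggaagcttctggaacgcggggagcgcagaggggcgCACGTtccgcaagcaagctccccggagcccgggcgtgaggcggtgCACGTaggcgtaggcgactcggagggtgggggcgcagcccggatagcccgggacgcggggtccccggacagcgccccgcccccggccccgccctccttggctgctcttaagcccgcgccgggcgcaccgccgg
Plod1: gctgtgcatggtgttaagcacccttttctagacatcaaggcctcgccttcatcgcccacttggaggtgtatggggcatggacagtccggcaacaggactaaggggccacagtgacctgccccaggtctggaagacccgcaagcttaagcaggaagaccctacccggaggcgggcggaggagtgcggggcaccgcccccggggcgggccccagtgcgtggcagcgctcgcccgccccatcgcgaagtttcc

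Plod2 held 2 matches to ACGTG, which began at positions -178 and -133 from the start site. No ACGTG was found in these windows of Plod1, Plod3, Loxl1, Loxl3 and Loxl4, where GCGTG was not counted. Among 33469 promoters of the same length, 16.6% held at least 1 match and 6.53% at least 2. The Plod2 window was 74.8% G and C and that of Plod1 65.6%, against a median of 51.2% over all promoters. A match to 5 letters is a description of the sequence only.

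Most of the genes listed for the preparation of procollagen were higher than in control tendons. Of 16 genes listed for hydroxylation and folding of procollagen, 15 were tested, and 11 rose, 2 fell and 2 did not pass in each of the 6 comparisons with control tendons, where 30.8 to 35.8% of all genes were higher and 33.3 to 35.6% lower. In 7D vehicle tendons the log2 fold change was 1.63 for Serpinh1, the collagen chaperone HSP47, 1.90 for Fkbp10, a prolyl isomerase that supports telopeptide hydroxylation, 1.55 for Ppib, cyclophilin B, and 1.37 for P4hb, the beta subunit of prolyl 4-hydroxylase (adjusted p 8.55e-10 to 2.82e-07). In 21D vehicle tendons the values were 1.13, 1.35, 1.20 and 0.92. P4ha1, a catalytic subunit of prolyl 4-hydroxylase, was -0.25 and -0.11 (adjusted p = 0.382 and 0.72), while P4ha3, another such subunit, was 3.74 at 7 days. The 2 that fell were P3h2, a prolyl 3-hydroxylase, at -2.94 (-2.05 without control replicate 2), and Tmem38b, an endoplasmic reticulum cation channel, at -2.78. P4ha3, P3h2 and Tmem38b were named after their values were seen.

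Of 14 genes that activate, hold or supply copper to lysyl oxidases, 12 were tested, and 9 rose and 1 fell at each dose at 7 days, where 34.1 to 35.8% of all genes were higher and 33.8 to 35.6% lower. Bmp1, the protease that frees active Lox and the collagen C-terminus, rose by 1.44 ± 0.22 on the log2 scale in 7D vehicle tendons (adjusted p = 3.07e-06). Postn, periostin, which aids Bmp1 in the matrix, was at 3.75 (adjusted p = 1.40e-07), and Fn1, fibronectin, at 2.78 (adjusted p = 6.90e-06). Pcolce, an enhancer of Bmp1, was at 0.62 (adjusted p = 0.0583). The gene called lower was Fmod, fibromodulin, a proteoglycan that binds Lox to collagen, at -1.64 (adjusted p = 6.01e-04) at 7 days and -1.14 (adjusted p = 0.0129) at 21 days. Its level was 772, 869 and 3210 CPM in the control tendons and 369 to 676 CPM in 7D vehicle tendons. In every group where it was called but 7D low-dose tendons, the call rested on control replicate 2, which had the 3210 CPM. Without it Fmod was at -0.72, -0.85 and -0.56 at 7 days (adjusted p = 0.0776, 0.0475 and 0.223) and at -0.21, -0.25 and 0.19 at 21 days (adjusted p 0.562 to 0.676). In 7D vehicle tendons without that tendon Pcolce was called, at 0.83 (adjusted p = 0.0326), and Fn1 was at 3.43, and without control replicate 3 Postn was at 4.67. At 21 days 8, 8 and 9 of the 12 rose and 1, 1 and 0 fell at 0, 2 and 6 mg/kg, where 32.2, 33.8 and 30.8% of all genes were higher and 33.7, 35.3 and 33.3% lower.

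Of the 3 procollagen N-propeptidases, Adamts14 and Adamts2 rose in all 6 comparisons, at log2 fold changes of 2.44 and 1.19 in 7D vehicle tendons (adjusted p = 2.76e-06 and 0.00123), and Adamts3 was at 0.97 (adjusted p = 0.0749). In 21D vehicle tendons Adamts3 was called as well, at 1.29 (adjusted p = 0.0223), so 3 of the 3 were higher there and 2 of 3 in each of the other 5 groups, where 30.8 to 35.8% of all genes were higher. This count moved with single control tendons. Without control replicate 2 Adamts3 was called in all 6 groups, at 2.06 in 7D vehicle and 2.39 in 21D vehicle tendons (adjusted p = 0.00144 and 4.92e-04), and without replicate 3 or 4 it was called in none, at 1.01 and 0.88 in 21D vehicle tendons (adjusted p = 0.107 and 0.146). Of 10 substrate genes 9 were tested, and Col1a2 was not analysed here. At 7 days 7, 5 and 7 of the 9 rose with 0, 2 and 6 mg/kg and 1 fell, against the same background. At 21 days 6, 4 and 6 rose and 1 fell, where 30.8 to 33.8% of all genes were higher and 33.3 to 35.3% lower. In 7D vehicle tendons the log2 fold changes were 2.45 for Col3a1, 2.42 for Col5a1, 2.38 for Col5a2, 1.34 for Eln, elastin, and 1.14 for Col1a1. The substrate that fell was Col11a2, named after its value was seen, at -4.14, and at -3.27 without control replicate 2. In 21D vehicle tendons Col1a1 was at 0.52 (adjusted p = 0.159), and without control replicate 2 it was called, at 1.01 (adjusted p = 0.0124). The lysyl oxidases Lox and Loxl1, at 2.00 and 2.55 there, were called in the same tendons.

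Enzymes that crosslink matrix by other chemistry were a smaller group, with 4 of 7 listed genes tested. Pxdn, peroxidasin, which forms sulfilimine bonds in collagen IV, rose by 2.67 ± 0.24 on the log2 scale in 7D vehicle tendons (adjusted p = 1.11e-09), and Qsox1, a sulfhydryl oxidase, by 0.74 ± 0.13 (adjusted p = 1.76e-05). The transglutaminases Tgm2 and F13a1 were at 0.65 and -0.22 (adjusted p = 0.0533 and 0.635). In 7D low-dose tendons all 4 were higher, with Tgm2 at 0.87 and F13a1 at 1.18 (adjusted p = 0.0147 and 0.0184), and in each of the other 5 groups 2 were, where 30.8 to 35.8% of all genes were higher over the 6 groups. Without control replicate 4 neither was called in 7D low-dose tendons (adjusted p = 0.0849 and 0.139), without replicate 2 Tgm2 was not (adjusted p = 0.0878), and without replicate 3 Tgm2 was called in 7D vehicle and 21D vehicle tendons (adjusted p = 0.0112 and 0.0155). None of the genes in these 5 lists passed between doses by the F-test at either time. The plot of genes that act beside the crosslinking enzymes gives both vehicle groups.

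**Figure D5:**
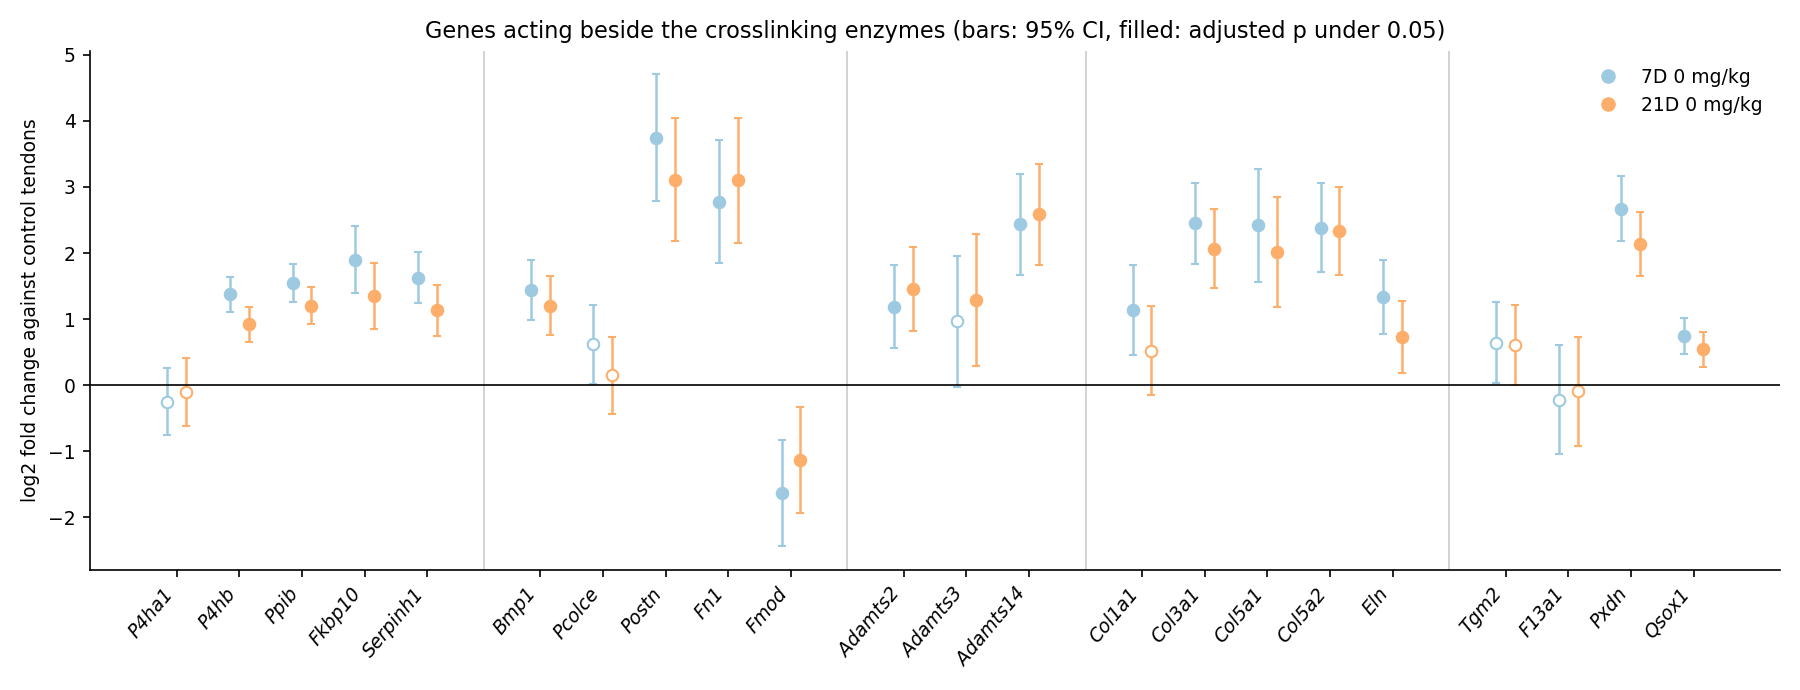
Log2 fold change against control tendons in 7D vehicle and 21D vehicle tendons, with 95% confidence intervals, for genes of procollagen hydroxylation and folding, lysyl oxidase activation and scaffold, N-propeptidases, substrates and other crosslinking enzymes, separated by lines from left to right. Filled points have an adjusted p under 0.05. Postn and Fn1 are among the highest, and P4ha1, Pcolce, Tgm2 and F13a1 are open in both groups.

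Over the 27 repaired tendons, which share groups and library depth, Pearson's r of log2 CPM for the 28 pairs of members ran from -0.466 to 0.779, with a median of 0.398, 9 pairs above 0.5 and 7 below 0. After the group means were taken out it ran from 0.0017 to 0.846, with a median of 0.502 and 14 pairs above 0.5. Between the members and all other genes the median r was 0.0075 and 4.05e-04, and 7.75 and 6.91% of the values were above 0.5. Pearson's r was 0.779 for Loxl1 with Loxl2 and 0.846 after the group means were taken out. For Lox with Plod2 it was 0.680 and 0.670. For Lox with Loxl2 it was -0.466 over all repaired tendons and 0.184 within groups. For Loxl2 with Plod3 it was 0.369 and 0.779. For Lox with Loxl1 it was -0.355 and 0.160, for Lox with Plod3 0.097 and 0.362, and for Loxl3 with Loxl4, the lowest of the pairs within groups, -0.0314 and 0.0017.

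The genes whose levels were most like each member over the 27 repaired tendons, members left out, were Kdelr2 and Tmem97 for Lox (r = 0.895 and 0.888), Numbl and Nhsl1 for Loxl1 (0.900 and 0.899), and Cacna1g and Trio for Loxl2 (0.935 and 0.923). They were P3h3, a prolyl 3-hydroxylase, and Slc39a7 for Loxl3 (0.763 and 0.741) and Nhlrc2 and Dck for Loxl4 (0.846 and 0.836). For the hydroxylases they were Myo7a and Anapc2 for Plod1 (0.852 and 0.846), Enpp1 and Poglut1 for Plod2 (0.844 and 0.825), and Slc35a2 and Glg1 for Plod3 (0.865 and 0.840). Loxl3 had the weakest closest match of the 8.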

How the data were processed

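Reads were trimmed with fastp, aligned to rn6 with STAR and counted over exons of Ensembl release 95 by the authors, per their methods, and their methods state that 4 samples were removed on quality. Of 5 tendons sequenced in the 7D 6 mg/kg group those methods take out 1, but 3 were labelled and used here, and the other was not analysed here. The submitters' processing notes also name FastQC and edgeR, without versions. The deposited values are raw counts per gene and tendon, and 13124 genes were in the table given here. Fold changes and p-values deposited beside them were not used. Genes averaging 3 CPM or more in 1 or more of the 7 groups were kept, 12558 in all, and 566 were left out. Counts were scaled by TMM and fitted over all 30 tendons in 1 quasi-likelihood model with 7 group means (edgeR 4.0.16, limma 3.58.1, R 4.3.3), and p-values were adjusted by Benjamini-Hochberg over the genes kept, with a call at an adjusted p under 0.05. The fit was also run on simulated data, and no outcome of that run is given or relied on here. Ratios of counts within a tendon were compared by permutation tests of the difference in means (scipy 1.17.1, Python 3.11.15), exact where a group had 3 tendons, and adjusted over 9 tests. Log2 CPM had a prior count of 2. Levels are not compared between genes, since exon lengths were not used here. Each tendon came from its own rat, and depth, 12405741 to 49909374 counts, is given with the results. The 8 members and all gene lists were chosen with earlier results of these data known. Named beside the members were the 4 most abundant genes of each list and, from the same lists, P4ha1, Bmp1 and Eln. P4ha3, P3h2, Tmem38b and Col11a2 were added after their values were seen. For each member the 2 genes with the highest Pearson r over 27 repaired tendons were also named. Alternatives were other scaling, other filters, a block on replicate number, muscle share as a covariate, only the groups compared, DESeq2 1.42.0, ratios in 0 mg/kg tendons alone, and each tendon left out in turn. Figures were drawn with matplotlib 3.10.9.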

Additional observations from a re-analysis of the deposited data

Results flagged for a closer look

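Of 40 groups of 4 or 5 tendons examined for a tendon far from the others, over the 8 genes, 1 stood out, where about 1 in 20 would by chance. Plod3 in 7D 0 mg/kg replicate 1 was at 76.8 CPM, below the other 4 tendons of that group.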

How the results depend on the processing

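Lox, Loxl1, Plod1, Plod2 and Plod3 were called against control tendons in all 6 groups under every left-out tendon, and the calls of Lox and Loxl1 also held in every alternative run. Of the log2 fold changes and F-tests of members, 777 kept their direction and side of the threshold under alternatives, 26 changed sign, 11 gained a call and 18 lost one, and with a tendon left out these numbers were 1173, 29, 15 and 7. The cause of the changes below was not tested. Scaled by library size only, which takes out the TMM factors, Loxl3 against control was 0.52 in 7D vehicle, 0.38 in 7D high-dose and 0.37 in 21D high-dose tendons, Loxl4 was 0.19 in 7D vehicle tendons, the 21D minus 7D value of Loxl3 was -0.029 with the low dose and -0.014 with the high dose, and 0 members were lower at 21 days at each dose. With RLE scaling and with DESeq2, 1 member was lower in 7D low-dose tendons. With no filter or with filterByExpr, Plod1 was 0.0072 for 21D minus 7D at 2 mg/kg. Replicate numbers recur across groups, but the labels tie no number to a shared rat, litter or day, and same-numbered tendons did not in general deviate together (76 pairs, r from -0.701 to 0.681, median 0.00685, 29 above 0.1). Of 19 pairs of groups with at least 3 shared numbers, all r were above 0.1 in 1, 7D vehicle with 21D high-dose tendons (0.170 to 0.428), which are not compared directly here. With the replicate block, 0 members were lower in 21D vehicle and 21D low-dose tendons, 2 members were lower in the mean of 21D minus 7D over doses, Loxl3 was 0.0098 in 7D vehicle tendons and Plod1 was 0.030 for 21D minus 7D at 2 mg/kg, and the dose by time interaction called 28 genes in place of 49. With muscle share as a covariate, 2 members were higher in 7D low-dose and 2 in 7D high-dose tendons. Loxl3 was -0.077 in 7D low-dose and -0.00083 in 21D low-dose tendons, and Plod1 was -0.0079 in 7D low-dose tendons. For 21D minus 7D, Loxl1 was 0.0028 at 0 mg/kg. At 2 mg/kg Loxl4 was 0.47, Plod1 0.61 and Plod2 0.17, and Plod1 was then the member called (adjusted p = 0.0344) in place of Loxl2 (adjusted p = 0.0774). At 6 mg/kg Loxl4 was 0.040, Plod1 0.38, Plod2 0.081 and Plod3 0.34. In the mean over doses Loxl4 was 0.014, Plod1 0.32, Plod2 0.048 and Plod3 0.31, with 0 members higher and 0 lower. Between doses at 7 days, 1 member was lower at 2 than at 0 mg/kg and 1 differed over the 3 doses. With no other groups in the model, 0 members were lower at 21 days at each dose, Loxl3 was -0.0043 for 21D minus 7D at 2 mg/kg, where 2 members were higher, 1 was higher and 1 lower at 6 mg/kg, and 2 were higher and 2 lower in the mean over doses. In 0 mg/kg tendons alone the log2 ratio of Plod2 to Plod1 was 1.08 above control at 7 days and 1.06 at 21 days, that of Lox to Col1a1 1.39 and 1.48, and that of Plod2 to Col1a1 0.81 and 1.20, with exact permutation adjusted p of 0.0643, or 0.161 for Plod2 to Col1a1 at 7 days. The smallest unadjusted p that 5 against 3 tendons can give is 0.0357, and 5 of these 6 ratios had it, so the missed threshold says little of their size. Lox to Col1a1 was 0.093 higher at 21 than at 7 days. With each tendon left out in turn, members lower ranged from 0 to 1 in all 6 comparisons with control and for 21D minus 7D at 2 mg/kg, and from 1 to 3 in the mean over doses. Loxl3 against control ranged from -0.42 to 0.61, -0.34 to 0.69 and -0.53 to 0.49 at 7 days and from -0.30 to 0.72, -0.35 to 0.67 and -0.46 to 0.56 at 21 days for 0, 2 and 6 mg/kg. For 21D minus 7D, Loxl1 ranged from -0.16 to 0.046 and Loxl3 from -0.023 to 0.19 at 0 mg/kg, and at 2 mg/kg Loxl3 from -0.093 to 0.23, Loxl4 from -0.22 to 0.023 and Plod1 from -0.044 to 0.0033. Plod2 to Col1a1 ranged from 0.82 to 1.32 at 7 days, 0.86 to 1.36 at 21 days and -0.019 to 0.13 between them. Genes called among all tested moved with the muscle covariate from 8757 to 1343 in 7D low-dose, from 8529 to 1421 in 7D high-dose, from 672 to 289 and from 1643 to 273 for 21D minus 7D at 0 and 6 mg/kg, from 4484 to 1258 in the mean over doses, from 296 to 1344 for 2 against 0 mg/kg and from 49 to 587 for 6 against 0 mg/kg at 7 days, from 258 to 889 over doses at 7 days and from 49 to 633 for the interaction. DESeq2 called 1496 for 21D minus 7D at 0 mg/kg, 710, 194 and 572 in those 3 dose tests at 7 days, 254 for 6 against 2 mg/kg at 21 days, where edgeR called 0 (3 with library size only, 18 with the covariate, 24 with no other groups), 69 for that pair at 7 days (0 in edgeR, 1 with the block, 3 with the covariate), 19 and 1 for 2 and 6 against 0 mg/kg at 21 days and 138 over doses at 21 days (0 in edgeR, 1 with library size only and 1 with no other groups), and 181 for the interaction, which called 31 with only the 6 repaired groups, and 6 against 0 mg/kg at 7 days called 103 with no other groups in the model. The alternative with Col1a2 as the denominator was not run, since Col1a2 was not analysed here. With 3 control tendons, replicates 2 and 4 each moved a call of Loxl2 at 7 days, and each of the 3 moved calls of Loxl4. The members had 93 counts or more in each tendon, and no fit at other depths was run.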
